A study of Mus musculus with 1931 samples.

Results

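*Dppa3*, *Nanos3*, *Prdm1*, *Prdm14*, *Kit* and *Kitl*, 6 of the 20999 genes in the expression table, were followed as a set of primordial germ cell (PGC) genes. They were chosen by name as genes of the germ cell program, with earlier results of these data known, and their rows were read in every cell with at least 2500 genes above 0. The cells came from RtL-embryoids, embryo-like aggregates that were built from mouse embryonic stem cells (ESCs) in 3D co-culture, and from 3 matching 2D cultures. Each of these 4 samples was 1 pool or 1 culture. Kermit ESCs, in which GFP is driven by Oct3/4, formed the Epi-like compartment of the embryoids and carry none of the inducible transgenes. 5-Factor ESCs, in which doxycycline (DOX) switches on *Cdx2*, *Tfap2c*, *Eomes*, *Gata3* and *Ets2*, formed the compartment like extraembryonic ectoderm (ExE) and were stained for CD40. iGATA6 ESCs, in which DOX switches on *Gata6* and which were marked with mCherry, formed the compartment like visceral endoderm (VE). After 3 days with 2 µg/ml DOX and a further 24 h without it, embryoids were picked by hand, pooled, dissociated and sorted onto plates 3, 4 and 5. In 2D, Kermit ESCs were kept in 2i/LIF without DOX, 5-Factor ESCs were reprogrammed to trophoblast stem cells (iTSC) in medium with FGF4 and heparin, and iGATA6 ESCs were reprogrammed to extraembryonic endoderm cells (iXEN). The iTSC and iXEN cultures had the same DOX schedule as the embryoids, 2 µg/ml for 3 days followed by 24 h without.

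PGCs are the founders of sperm and eggs. In the mouse they are set aside from a few epiblast cells next to the ExE, in response to BMP proteins from the ExE and the VE. *Prdm1* (Blimp1) and *Prdm14* encode transcriptional regulators that start the germ cell program together with Tfap2c, Prdm1 by shutting down the somatic program and Prdm14 by restoring pluripotency genes and lowering DNA methylation. *Dppa3* (Stella) encodes a protein that protects against changes in DNA methylation, and it is also active in naive pluripotent cells and in the oocyte. *Nanos3* encodes an RNA-binding protein that early germ cells need for survival. *Kit* encodes a receptor tyrosine kinase and *Kitl* its ligand, stem cell factor, which surrounding cells make and which guides germ cell survival and migration.

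All 6 genes are protein coding in the Gencode vM21 annotation of GRCm38. *Dppa3* (ENSMUSG00000046323.8) spans chr6:122626410-122630272 on the plus strand, and 1 annotated pseudogene is named after it. *Nanos3* (ENSMUSG00000056155.6) spans chr8:84173731-84185217 on the minus strand and overlaps the microRNA genes *Mir181c* and *Mir181d*, both of which have rows of their own. *Prdm1* (ENSMUSG00000038151.13) spans chr10:44437177-44528501 and *Prdm14* (ENSMUSG00000042414.7) chr1:13113457-13127163, both on the minus strand. *Kit* (ENSMUSG00000005672.12) spans chr5:75574916-75656722 and *Kitl* (ENSMUSG00000019966.18) chr10:100015630-100100416, both on the plus strand. The promoters of *Nanos3*, the member by which Epi cells were later divided, and of the receptor and ligand pair are shown from 250 bases before to 50 bases after the RefSeq start (GRCm38.p6), 5′ to 3′ on the gene's own strand. Capitals mark matches to the core of AP-2 sites, GCCNNNGGC, which reads the same on both strands, because *Tfap2c* encodes an AP-2 factor and its RNA moved with that of *Nanos3* across cells.
Nanos3 promoter, chr8:84176503-84176802, minus strand: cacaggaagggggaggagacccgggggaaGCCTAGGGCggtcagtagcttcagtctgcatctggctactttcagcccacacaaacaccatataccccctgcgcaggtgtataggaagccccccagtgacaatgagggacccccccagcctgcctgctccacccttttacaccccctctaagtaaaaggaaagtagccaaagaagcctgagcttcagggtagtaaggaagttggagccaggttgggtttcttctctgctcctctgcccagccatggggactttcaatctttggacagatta
Kit promoter, chr5:75574737-75575036, plus strand: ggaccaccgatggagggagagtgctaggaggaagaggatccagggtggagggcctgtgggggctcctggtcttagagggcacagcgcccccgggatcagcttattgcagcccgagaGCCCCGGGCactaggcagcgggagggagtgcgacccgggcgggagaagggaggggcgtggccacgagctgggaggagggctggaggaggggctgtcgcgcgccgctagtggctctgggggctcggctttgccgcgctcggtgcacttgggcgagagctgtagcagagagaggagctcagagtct
Kitl promoter, chr10:100015571-100015870, plus strand: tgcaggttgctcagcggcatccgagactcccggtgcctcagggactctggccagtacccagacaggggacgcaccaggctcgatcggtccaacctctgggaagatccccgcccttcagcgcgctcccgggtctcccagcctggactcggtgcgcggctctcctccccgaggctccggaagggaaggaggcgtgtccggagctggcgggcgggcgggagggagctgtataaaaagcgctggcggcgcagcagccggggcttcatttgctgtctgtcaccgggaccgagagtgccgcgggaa
The *Nanos3* promoter held 1 match, which began at base -221, and the *Kit* promoter 1 match at base -134. The *Kitl* promoter and that of *Prdm1* (chr10:44458699-44458998, minus strand) held 0 matches. Such a match was present in 5450 of 32851 RefSeq promoters of the same length (16.6%), so a match is a description of these letters only. The octamer ATGCAAAT, searched on both strands, was found in none of these 4 promoters and in 570 of the 32851 (1.74%). *Dppa3* and *Prdm14* have no entry.

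Of 1931 wells, 1406 cells were kept, 982 from 3D and 424 from 2D, and the wells left out held almost no signal of the 6 genes (*Kit* in 3 of 525 wells, *Dppa3* and *Prdm14* in 1 each, the others in 0). The embryoid cells were grouped by plate column, with columns 1 to 8 as Epi wells, 9 to 16 as VE wells and 17 to 24 as ExE wells. All 4 markers of each lineage had their highest mean of the 3 blocks in the block named for it, among them *Pou5f1* and *Nanog* for Epi, *Amn* and *Gata4* for VE, and *Cdx2* and *Elf5* for ExE. Cells with more markers of another lineage than of their own numbered 2 of the Epi wells, 4 of the VE wells and 47 of the ExE wells (13.3%), and the values of the 6 genes in the ExE wells are also given without those 47 cells. Levels are TP10k, that is TPM rescaled to a sum of 10000 in each cell, averaged over all cells of a group including those at 0, and a gene counts as found in a cell where its value is above 0. TPM correct for transcript length, so levels of different genes can be set side by side on this scale, but they hold no read number, and the number of genes above 0 stands in for depth. This was 4823 genes in the median Epi well (5710 on plate 3, 4448 on plate 4 and 4199 on plate 5), 5348 in VE wells and 5396 in ExE wells, against 8537 to 9093.5 in the 3 cultures. Since each group is 1 sample, no test was made between groups. Plates are technical splits of 1 pool, shares carry exact 95% Clopper-Pearson intervals that cover counting error only, and a difference between 3D and 2D cannot be told apart from culture, plate, library or depth.

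*Dppa3* was the most abundant of the 6 genes in the Epi wells. Its mean level there was 2.32 TP10k on plate 3, 1.94 on plate 4 and 1.65 on plate 5, and it was found in 36.3% of cells (interval 30.98 to 41.9). The shares on the plates were 39.6%, 32.7% and 36.8%. Among the cells in which it was found, the level ran from 0.299 over a median of 3.65 to 27.5 TP10k, and 23 cells held 50% or more of the summed signal. In 2i/LIF ESCs *Dppa3* was found in 59.2% of cells (interval 50.6 to 67.3), at a lower mean level of 0.341 TP10k and a median of 0.370 among positive cells. The Epi wells thus had the higher mean level and the higher level per positive cell. The lowest positive value was 0.299 TP10k in the Epi wells and 0.0229 in ESCs, which had more genes above 0 per cell. Levels per positive cell are thus not measured from a like floor. It was rare elsewhere, in 15 iTSC (10.6%, 0.0521 TP10k), 2 VE cells (0.635%), 4 ExE cells (1.13%, and 3 without the cells that went against their block) and 1 iXEN cell (0.709%). In the order of mean levels, Epi wells were followed by ESCs and then by iTSC. The plate ranges of VE and ExE wells overlapped, and the mean of iXEN lay within the range of the ExE wells.

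*Nanos3* was found in a small number of Epi cells, at high levels. Its mean level in the Epi wells was 0.214 TP10k on plate 3, 0.204 on plate 4 and 0.184 on plate 5. These means came from 13, 8 and 7 cells, together 28 (8.92% of Epi cells, interval 6.01 to 12.6). The level among the 28 cells ran from 0.219 over a median of 1.73 to 8.57 TP10k, and 7 of them held 50% or more of the signal. In the VE wells *Nanos3* was listed at 0 in every cell, where 3 counts over the cells read give a limit of 0.952% and the exact interval ends at 1.164%. In the ExE wells it was found in 8 cells (2.27%), at a mean of 0.0197 TP10k, with 2 of these cells holding 50% or more of the signal. Without the 47 cells that went against their block, 6 remained (1.96%), at 0.0192 TP10k. The cultures held *Nanos3* at low levels, in 18.4% of iTSC (0.0520 TP10k), 10.6% of ESCs (0.0198) and 4.26% of iXEN (0.00667). The highest ESC reached 0.581 TP10k, which is below the median of the positive Epi cells, and the highest iTSC 0.803. The lowest positive level in Epi cells was 0.219, 1.24 and 1.43 TP10k on plates 3, 4 and 5, against 0.0216 in ESCs. That median is thus not measured from a like floor. The mean of the ESCs lay within the plate range of the ExE wells, and the other neighbours in the order did not overlap. A culture was on a single plate and has no range, so iTSC and ESCs could not overlap.

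The regulators *Prdm1* and *Prdm14* were both highest in 2i/LIF ESCs and second in the Epi wells. The mean level of *Prdm1* in the Epi wells was 0.0717 TP10k on plate 3, 0.0715 on plate 4 and 0.0565 on plate 5, and it was found in 55 cells (17.5%, interval 13.5 to 22.2). ESCs had 0.0846 TP10k and 78.2% of cells. In the ExE wells *Prdm1* was found in 7.08% of cells (0.0195 TP10k; 6.86% and 0.0169 without the 47 cells) and in the VE wells in 4 cells (0.00753), and the plate ranges of these blocks overlapped. The iTSC culture stood between the Epi and ExE wells (0.0326 TP10k, 17.7% of cells) and iXEN lowest (0.00306).
*Prdm14* had a mean level of 0.0864 TP10k on plate 3, 0.0996 on plate 4 and 0.154 on plate 5 in the Epi wells, where it was found in 51 cells (16.2%, interval 12.3 to 20.8). It was listed at 0 in every ExE cell, where the limit by 3 counts is 0.850% and the exact interval ends at 1.04%, and found in 1 VE cell, a cell that went against its block. ESCs had 0.455 TP10k and 92.96% of cells, and iTSC and iXEN had it in 5 and 3 cells. Within the embryoids *Prdm14* was thus seen almost entirely in Epi wells, on each of the 3 plates.

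The receptor *Kit* and its ligand *Kitl* had their highest mean levels in different groups, ESCs and ExE wells. *Kit* had a mean level of 0.228 TP10k on plate 3, 0.196 on plate 4 and 0.209 on plate 5 in the Epi wells and was found in 97 cells (30.9%, interval 25.8 to 36.3). In the VE wells it was found in a like share of cells (33.02%), with mean levels of 0.171, 0.122 and 0.378 TP10k on the same plates, which enclose those of the Epi wells. It was found in every ESC (0.795 TP10k), which had the highest level, in 57.4% of iXEN cells (0.227) and in 31.9% of iTSC (0.0991). In the ExE wells *Kit* was found in 12.7% of cells, with mean levels of 0.0583, 0.147 and 0.0215 TP10k. Of the 47 ExE cells that went against their block 23.4% held *Kit* (0.153 TP10k), and without them the share was 11.1% and the mean 0.0641. The share of Epi cells with *Kit* was 44.6% on plate 3, the deepest, and 25.2% and 23.6% on plates 4 and 5, while the mean level moved little.
*Kitl* was highest in the ExE wells, with mean levels of 0.114 TP10k on plate 3, 0.146 on plate 4 and 0.263 on plate 5, and was found in 92 cells (26.1%, interval 21.6 to 30.97). Without the cells that went against their block the share was 26.5% and the mean 0.182. The level among positive cells had a median of 0.299 and reached 6.38 TP10k, and 13 cells held 50% or more of the signal. The iTSC culture came second with 0.0281 TP10k and 17.02% of cells, and so held both receptor and ligand. In the other groups *Kitl* was found in 7 Epi cells, 2 VE cells, 5 ESCs and 5 iXEN cells, with mean levels from 0.00106 to 0.00566 TP10k.

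**Figure D1:**
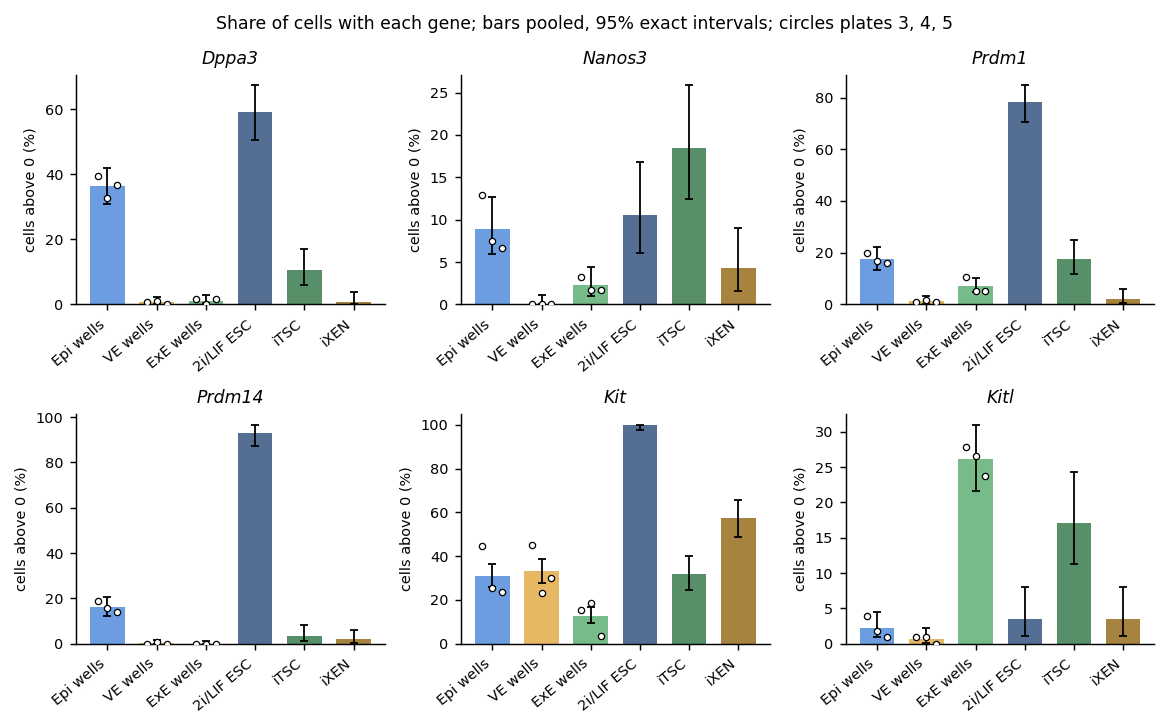
Share of cells in which each of the 6 genes was above 0 (y axis, percent) in Epi, VE and ExE wells of the embryoids and in the 3 cultures; bars are pooled shares with exact 95% intervals and circles are plates 3, 4 and 5. *Prdm1*, *Prdm14* and *Kit* were found in 78.2%, 92.96% and 100% of 2i/LIF ESCs, which had more genes above 0 per cell than the embryoid cells, and *Kitl* in 26.1% of cells of the ExE wells.

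**Figure D2:**
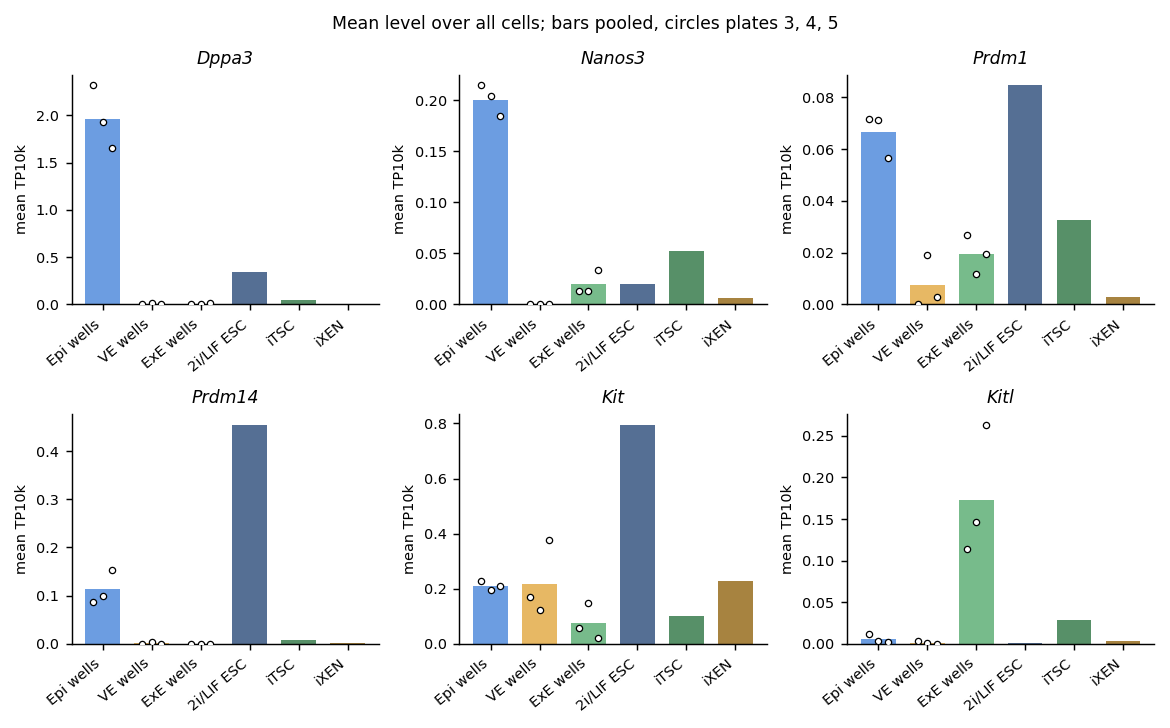
Mean level of each gene over all cells of a group (y axis, TP10k, zeros included), with bars for the pooled cells and circles for plates 3, 4 and 5. *Dppa3* and *Nanos3* had their highest means in Epi wells, at 1.96 and 0.201 TP10k, *Kitl* in ExE wells at 0.173, and the other 3 genes in 2i/LIF ESCs.

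Depth within a plate moved the shares of some genes more than their levels. When the Epi cells of each plate were split at the median number of genes, *Kit* was found in 23.3% of the shallower and 38.7% of the deeper cells, and *Prdm14* in 11.3% and 21.3%. The corresponding shares were 33.3% and 39.4% for *Dppa3*, 7.55% and 10.3% for *Nanos3*, and 16.4% and 18.7% for *Prdm1*. The mean level of *Kit* was 0.204 TP10k in the shallower and 0.218 in the deeper cells, and that of *Dppa3* 2.02 and 1.91. That of *Prdm14* was 0.106 and 0.121, and that of *Prdm1* 0.0698 and 0.0631. The levels of *Nanos3* (0.159 and 0.243) and *Kitl* (0.00115 and 0.0103) did move with depth. Shares are therefore given beside mean levels, and nothing is read from a larger share in the cultures, whose cells had larger numbers of genes above 0.

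To place the 6 genes among all genes, a gene was called different between groups when its mean TP10k, with 0.01 added to both means, differed at least 2-fold and in the same direction on plates 3, 4 and 5. A gene entered this rule when 10% or more of the cells in 1 of the compared groups held it. A call is a description of size and has no p-value. Between Epi and VE wells 15.1% of 10662 genes were called higher and 15.1% lower in the Epi wells. Of the 6 genes 4 entered, and 3 were called higher and 0 lower. The log2 fold was 6.77 for *Dppa3*, which rests on 2 VE cells, 3.48 for *Prdm14* and 2.13 for *Prdm1*, while that of *Kit* was -0.05. The 3 genes called passed the minimum only through the Epi wells, where they were high, so their entry already favoured a difference in that direction. With 0.1 added in place of 0.01 the call of *Prdm1* was lost (0.63). *Nanos3* fell short of the 10% minimum, with 8.92% of Epi cells against none of the VE cells, and *Kitl* was found in 2.23% and 0.635%.
Between Epi and ExE wells 8.08% of 10886 genes were called higher and 14.1% lower in the Epi wells. Here 5 of the 6 genes entered, with 4 higher and 1 lower. *Dppa3* had a log2 fold of 6.89, *Prdm1* of 1.37 and *Kit* of 1.36, *Prdm14* was listed at 0 in the ExE wells, and *Kitl* had a log2 fold of -3.55. The call of *Kit* rested on plate 5, without which its log2 fold was 0.99. *Nanos3* had a log2 fold of 2.83 and stayed under the 10% minimum, which it passed without plate 5. *Dppa3*, *Prdm1* and *Prdm14* again passed the minimum only through the Epi wells, and *Kitl* only through the ExE wells. With 0.1 added the calls of *Prdm1* (0.48) and *Kit* (0.82) were lost. Without the 47 cells that went against their block the calls were the same, with log2 folds of 6.84 for *Dppa3*, 1.52 for *Prdm1*, 1.58 for *Kit* and -3.61 for *Kitl*.

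Against the 2i/LIF ESCs, the 6 genes divided. Between Epi wells and ESCs 8.38% of 13109 genes were called higher and 6.25% lower in the Epi wells, and 2 of 5 members that entered were higher and 2 lower. *Dppa3* had a log2 fold of 2.49 and *Nanos3* of 2.82, both higher in the Epi wells. *Prdm14* (log2 -1.91) and *Kit* (log2 -1.87) were lower there, and *Prdm1* had a log2 fold of -0.31. *Nanos3* kept a log2 fold of 3.15 with no minimum of genes per cell, where its share no longer passed the 10% minimum. Between ExE wells and iTSC 8.67% of 13012 genes were called higher and 8.32% lower in the ExE wells, and of 5 members *Kitl* was higher (log2 2.26) and 2 were lower. These were *Dppa3*, with a log2 fold of -1.90, and *Nanos3*, with -1.06. Both passed the minimum only through iTSC, and with 0.1 added both calls were lost (-0.51 and -0.35). The call of *Nanos3* was also lost without plate 3 (-0.89) or plate 4 (-0.92). Without the 47 cells the log2 folds were 2.33 for *Kitl*, -1.85 for *Dppa3* and -1.09 for *Nanos3*, with the same calls. *Prdm1* and *Kit* had log2 folds of -0.53 and -0.34, and *Kit* was called lower without plate 4 (-1.11). Between VE wells and iXEN 2.89% of 12248 genes were called higher and 5.64% lower, and *Kit*, the only member found in 10% of either group, had a log2 fold of -0.06.

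The wider list of 14 PGC program genes, of which *Rhox5* has no row, was read in the same blocks. Over all genes 15.1% were called higher and 15.1% lower between Epi and VE wells. Of 12 genes of the list that entered there 8 were higher and 1 lower in Epi wells, with a median log2 fold of 1.89 against 0.06 over all genes. Some of these, among them *Ifitm1* and *Elavl2*, passed the minimum only through the Epi wells, so that the count and the median are descriptions of the list. *Ifitm3*, which encodes a membrane protein of early germ cells, had 9.13 TP10k in Epi wells, 0.154 in VE wells and 1.01 in ExE wells. *Tcl1*, *Elavl2* and *Alpl*, the last of which encodes the alkaline phosphatase used to stain germ cells, were called higher in Epi wells than in each of the other blocks. None of these was particular to the embryoids. *Ifitm3* had 16.3 TP10k in 2i/LIF ESCs, *Tcl1* 3.30 against 2.43 in Epi wells, *Alpl* 2.33 against 1.45 and *Elavl2* 0.216 against 0.223. Against ExE wells 5 of 13 were higher and 3 lower, the latter being *Rhox6*, *Rhox9* and *Tfap2c*, with a median of 0.55 against -0.09 over all genes. Over all genes 8.08% were called higher and 14.1% lower there. *Tcl1* passed the minimum only through the Epi wells, and *Rhox6* and *Rhox9* only through the ExE wells, so that this count is also a description. *Tfap2c* is also an inducible transgene of the ExE cells, and the table does not separate transgene from endogenous RNA. It stood at 0.446 TP10k in the Epi wells (39.5% of cells), whose Kermit cells do not carry the transgene, at 0.986 in the ExE wells (1.13 without the 47 cells) and at 0.0141 in the VE wells. *Tfap2c* is also among the ExE markers that picked out those 47 cells, so leaving them out favours a higher mean by construction. Against the ESCs 1 of 11 PGC program genes was higher, *Lin28a* (log2 1.63), and 0 were lower. Over all genes 8.38% were called higher and 6.25% lower there, so the count of higher genes is near that share.
Among the signals that induce PGCs, *Bmp4*, *Bmp8b* and *Bmp2* had their highest embryoid means outside the Epi wells. *Bmp4* had 0.943 TP10k in ExE wells and 0.210 in Epi wells, *Bmp8b* 0.411 and 0.00765, and *Bmp2* 0.0537 in VE wells and 0.000452 in Epi wells. *Bmp4* and *Bmp8b* were higher still in iTSC, at 1.98 and 1.496 TP10k. Of 10 genes of this list that entered between Epi and ExE wells 0 were higher and 8 lower in Epi wells, among them *Id2*, a BMP target, at 0.384 against 8.99 TP10k. Over all genes 8.08% were called higher and 14.1% lower in this comparison. *Bmp8b* and *Acvr1* passed the minimum only through the ExE wells, so that the count is a description of the list. Of the 9 that entered against ESCs, 4 were higher in the Epi wells and 0 lower: *Bmp4*, *Id1*, *Id2* and *Id3*. Over all genes 8.38% were called higher and 6.25% lower against ESCs. *Wnt3*, which primes epiblast for PGC fate, had its highest embryoid mean in the Epi wells (0.0121 TP10k) and was found in 1.91% of Epi cells, and the mesoderm gene *T* in 0.637%.
Later germ cell genes were detected at low levels in every block. *Ddx4* was found in 23.6% of Epi, 20.6% of VE and 33.1% of ExE cells. Of 6 genes of that list 4 were higher in Epi than in VE wells (*Dazl*, *Mael*, *Piwil2* and *Stk31*) and 0 lower. Over all genes 15.1% were called higher in this comparison. These 4 passed the minimum only through the Epi wells, so that the count is a description of the list. Against ExE wells 2 of 6 were higher and 0 lower, where 8.08% of all genes were called higher and 14.1% lower. *Dazl* and *Mael* passed the minimum there only through the Epi wells. Against ESCs 3 were higher and 1 lower, where 8.38% of all genes were called higher and 6.25% lower. The Kit signalling list holds genes that relay or limit the signal of the receptor. Of 7 that entered between Epi and VE wells *Etv5* was higher and *Pik3r1* lower in the Epi wells, and against ExE wells *Etv5* was higher and *Grb2* and *Sh2b3* lower. Over all genes 15.1% were called each way against VE wells, and 8.08% higher and 14.1% lower against ExE wells. With so few genes on the list, these counts are descriptions.

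Co-detection was counted in the Epi cells. None of the 6 genes was found in 34.4% of cells and 1 in 33.4%. Of the others 64 cells held 2 genes, 31 held 3, 4 held 4, 2 held 5 and 0 held all 6, so 37 cells (11.8%, interval 8.43 to 15.9) held 3 or more. Cells with 0 genes had a median of 4434 genes above 0, and cells with 3 or more had 5193. For 14 of the 15 pairs the second gene was found in a larger share of cells with the first gene than of cells without it, and for 4 pairs the 95% Newcombe interval of that difference lay above 0, without adjustment for the number of pairs. *Kit*-positive cells had a median of 5444 genes and *Kit*-negative cells 4581, and the part of depth in these differences was not tested.
The pair of *Dppa3* and *Nanos3* was found together in 17 cells. These were 60.7% of the *Nanos3*-positive and 14.9% of the *Dppa3*-positive cells. *Dppa3* was found in 33.9% of the *Nanos3*-negative cells, a difference of 26.8 percentage points (interval 7.64 to 43.4), which was 25.2, 32.2 and 21.8 points on plates 3, 4 and 5. The direction was the same on each plate, but each plate's interval included 0 (-2.85 to 47.9, -1.15 to 57.4 and -11.8 to 50.2 points). The median number of genes was 5052 in *Nanos3*-positive and 4816 in *Nanos3*-negative cells. It was 6060 against 5665 on plate 3, which held 13 of the *Nanos3*-positive cells. On plates 4 and 5 it was 4438.5 against 4520 and 4127 against 4202.
*Prdm14* and *Kit* were found together in 22 cells, with *Kit* in 43.1% of *Prdm14*-positive and 28.5% of *Prdm14*-negative cells (difference 14.6 points, interval 0.743 to 29.1). *Dppa3* and *Kit* were found together in 43 cells (difference 10.7 points, interval 0.103 to 21.5), but the difference was -4.86 points on plate 5. *Nanos3* and *Kitl* were found together in 3 cells (difference 9.32 points, interval 1.99 to 25.8), but the difference was -2.02 points on plate 4. *Prdm14* was found in 62.5% of the 8 *Nanos3*-positive cells of plate 4 and in 15.4% and 14.3% of those of plates 3 and 5, and over all plates the interval reached from -0.554 to 32.4 points. The difference of that pair rests on plate 4, without which it was -1.58 points.
*Prdm1* and *Prdm14* were found together in 9 Epi cells, with *Prdm14* in 16.4% of *Prdm1*-positive and 16.2% of *Prdm1*-negative cells, a difference of 0.147 points with an interval of -8.86 to 12.7. In 2i/LIF ESCs both were found in 73.9% of cells. *Prdm1* and *Kitl* were never found together. All 4 of *Prdm1*, *Prdm14*, *Dppa3* and *Nanos3* were found in 2 Epi cells (0.637%) and in 10 ESCs (7.04%), and in none of the other groups.

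**Figure D3:**
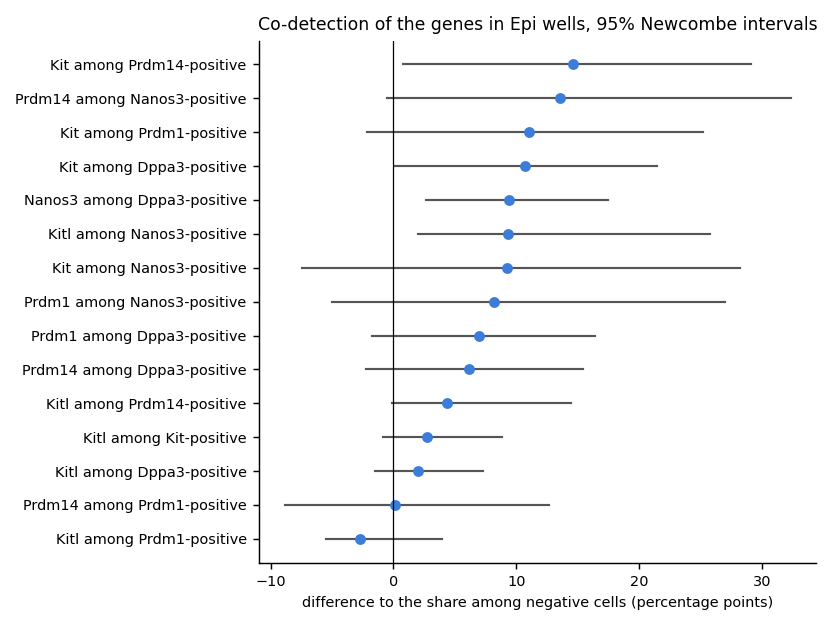
Difference in the share of Epi cells with the first named gene between cells with and without the second (x axis, percentage points), for all 15 pairs of the 6 genes, with 95% Newcombe intervals as lines. The 4 intervals above 0 are those of *Kit* with *Prdm14*, *Kit* with *Dppa3*, *Nanos3* with *Dppa3* and *Kitl* with *Nanos3*.

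The cells with the most *Nanos3* illustrate how the program was spread. The highest, on plate 4, had 8.57 TP10k of *Nanos3*, 11.6 of *Dppa3*, 0.837 of *Prdm1*, 1.03 of *Prdm14*, 1.65 of *Kit* and 1.74 of *Tfap2c*. The second, on plate 3, had 5.92 TP10k of *Nanos3*, 2.29 of *Tfap2c* and 0.558 of *Kitl*, with *Dppa3*, *Prdm1*, *Prdm14* and *Kit* at 0. The next 2 cells in the order, both on plate 5, had 4.52 and 4.33 TP10k of *Nanos3* with *Dppa3* and *Tfap2c* at 0. The first of these held *Prdm14* at 0.541 TP10k, and the other held no other member. A high level of *Nanos3* was thus seen with many, few or none of the other members.

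Among genes found in at least 10% of Epi cells, *Tfap2c* had the highest correlation with *Dppa3* and with *Nanos3*. It was found in all 17 cells with both genes (interval 80.5 to 100%), in 63 of 97 with *Dppa3* alone (64.9%), in 5 of 11 with *Nanos3* alone (45.5%) and in 39 with neither (20.6%). Its mean level in these classes was 1.48, 0.790, 0.672 and 0.164 TP10k. The median number of genes differed less, at 5193, 5044, 4932 and 4722. In 2i/LIF ESCs *Tfap2c* was found in 11 of 12, 65 of 72, 2 of 3 and 46 of 55 cells of the same classes, so that it was frequent in cells with and without the 2 genes. Its mean level in these ESC classes was 0.620, 0.388, 0.617 and 0.240 TP10k. The mean was thus also highest with both genes and lowest with neither in ESCs. By Pearson correlation of ln(TP10k + 1) over the Epi cells, 9730 genes were compared for *Dppa3* and 9731 for *Nanos3*. *Tfap2c* ranked first for *Dppa3* (r = 0.53, and 0.59, 0.69 and 0.32 on plates 3, 4 and 5). It also ranked first for *Nanos3* (r = 0.29, and 0.35, 0.43 and 0.09). The cells share 1 pool and the plates' depths, and the values are descriptions.

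**Figure D4:**
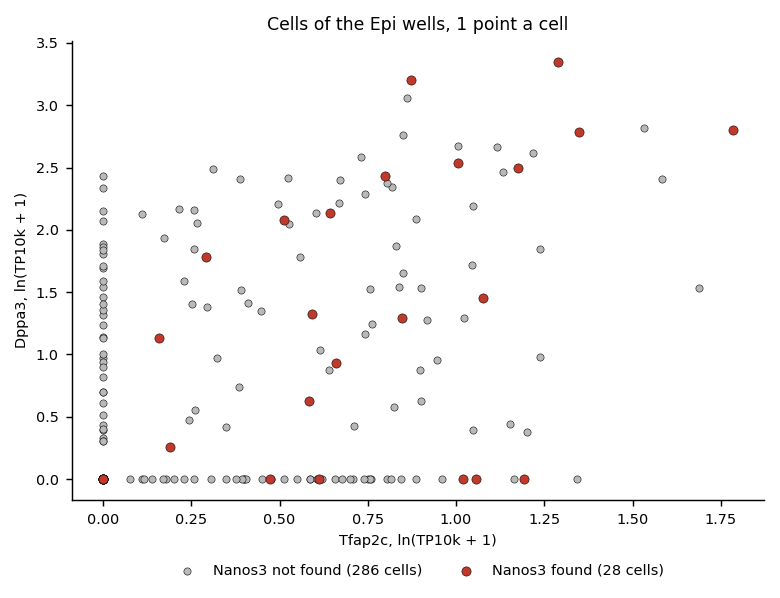
Level of *Dppa3* (y axis) against *Tfap2c* (x axis), both as ln(TP10k + 1), in the cells of the Epi wells, 1 point a cell. Red points are the 28 cells with *Nanos3*, of which 17 have *Dppa3* and *Tfap2c* both above 0, and grey points the cells without it.

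Epi cells with and without *Nanos3* were compared across the lists of pluripotency and germ cell genes. With the same rule, 1.61% of 10519 genes were called higher and 6.51% lower in the 28 *Nanos3*-positive cells. Of the other members *Dppa3* was called higher, at 5.28 against 1.64 TP10k (log2 1.68, between 0.85 and 2.20 on the plates). Its level was larger in *Nanos3*-positive cells on every plate. *Prdm1* (0.104 against 0.0628 TP10k), *Prdm14* (0.233 against 0.102) and *Kit* (0.358 against 0.196) had higher means but no common direction on the plates. Of 13 PGC program genes 2 were higher and 0 lower. *Tfap2c* stood at 1.161 against 0.376 TP10k (log2 1.60) and *Rhox9*, a homeobox gene, at 0.271 against 0.0961 (log2 1.41), the latter found in 4 of the 28 cells and in 6.64% of the others. *Rhox9* passed the minimum only through the *Nanos3*-positive cells, and its call was lost when plate 5 was left out (0.25) and with 0.1 added (0.92). *Dnd1*, the RNA-binding partner of Nanos3 in germ cells, had 0.277 against 0.0868 TP10k with plates that disagreed.
Of 6 genes of the formative or primed state 3 were called lower in the *Nanos3*-positive cells and 0 higher. *Otx2*, a transcription factor that restrains entry into the germ line, stood at 0.219 against 0.812 TP10k (log2 -1.84, between -2.23 and -1.60 on the plates). *Dnmt3b*, a DNA methyltransferase, stood at 0.335 against 1.18 (log2 -1.79) and *Sall2* at 0.0121 against 0.0681 (log2 -1.83). *Sall2* passed the minimum only through the *Nanos3*-negative cells and lost its call with 0.1 added (-0.59). *Fgf5*, *Lef1* and *Nodal* had log2 folds of -0.998, 0.08 and -0.08, with no call. None of 8 naive, 6 core pluripotency, 7 methylation control and 7 Kit signalling genes was called. *Dazl*, a later germ cell gene, was found in 1 of the 28 *Nanos3*-positive and 60 of the *Nanos3*-negative cells (log2 -3.08), and passed the minimum only through the latter. The mesoderm genes *T*, *Mixl1*, *Evx1*, *Hoxb1* and *Fgf8* were listed at 0 in all 28 cells, as were all 4 VE markers and the ExE markers *Cdx2* and *Elf5*. In the *Nanos3*-negative cells each of these was found in at most 6.29%, so that few or no cells among 28 would hold them at the same rate. *Eomes*, on both the mesoderm and the ExE lists, was found in 2 of the 28 cells (7.14%) and in 8.04% of the others, and *Tfap2c*, called higher above, is also an ExE marker.

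Splitting the Epi cells by *Dppa3* gave a partly different set of genes. Here 1.88% of 10109 genes were called higher and 1.95% lower in the positive cells. *Nanos3* stood at 0.320 against 0.133 TP10k (log2 1.21), a call that was lost without plate 4 (0.60) and with 0.1 added (0.85). *Tfap2c* stood at 0.892 against 0.192 TP10k (log2 2.16) and was found in 70.2% against 22% of cells. *Rhox6* (log2 2.23), *Rhox9* (log2 2.11) and *Bmp4* (0.390 against 0.107 TP10k, log2 1.77) were also higher. *Nanos3*, *Rhox6*, *Rhox9* and *Bmp4* passed the minimum only through the *Dppa3*-positive cells. In cells with 5500 to 8500 genes these 4 had no call, and members and list genes numbered 1 higher and 0 lower in place of 5 and 4. *Ifitm1*, at 16.5 against 8.28 TP10k, and *Ifitm3*, at 12.03 against 7.48, stayed under a 2-fold difference. Of 8 naive genes 0 were higher and 2 lower, *Klf4* (log2 -1.26) and *Tbx3* (log2 -1.16), and of 6 formative genes *Sall2* was lower (log2 -1.42). The call of *Tbx3* was lost without plate 3 (-0.96), and those of *Klf4* (-0.94), *Tbx3* (-0.86) and *Sall2* (-0.98) without plate 5. *Otx2* stood at 0.560 against 0.873 TP10k (log2 -0.63), with no call. *Prdm1*, *Prdm14* and *Kit* had log2 folds of 0.69, 0.61 and 0.39, also without a call.

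**Figure D5:**
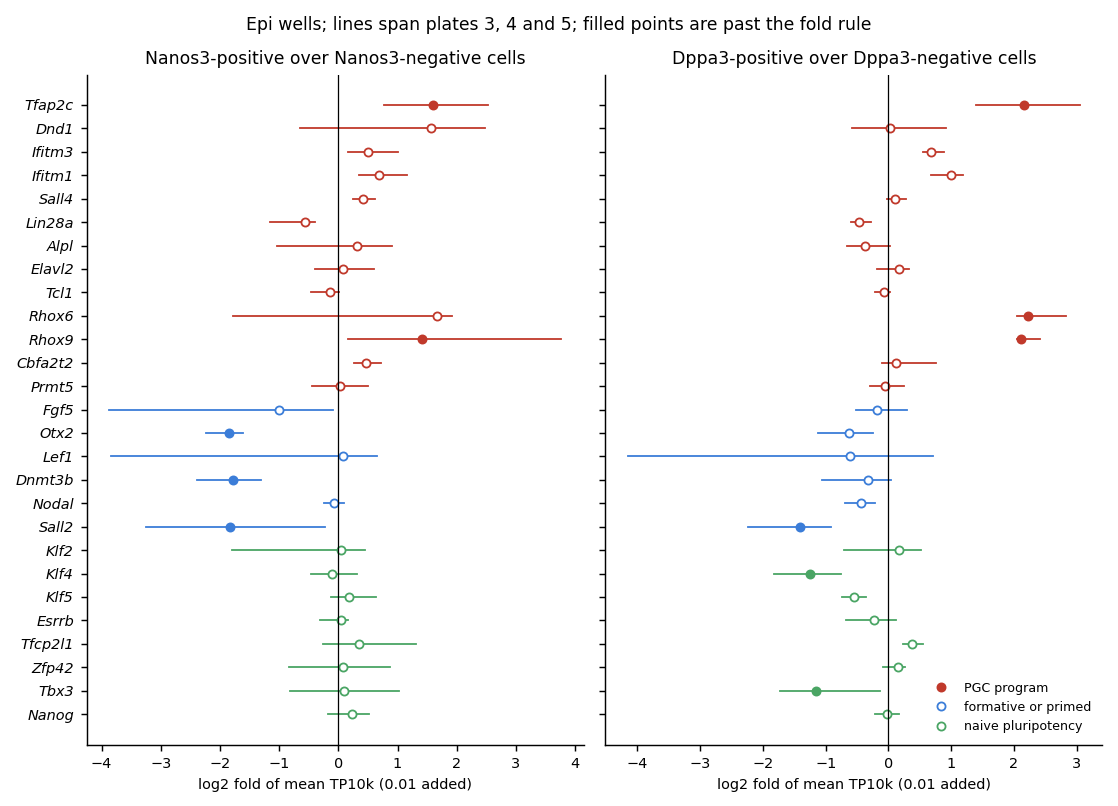
Log2 fold of mean TP10k (x axis, 0.01 added) of PGC program, formative or primed and naive pluripotency genes between Epi cells with and without *Nanos3* (left) and with and without *Dppa3* (right). Lines span plates 3, 4 and 5 and filled points are at least 2-fold and the same way on the plates; *Tfap2c* is filled in both panels, at 1.60 and 2.16, and *Otx2* and *Dnmt3b* only on the left.

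The ligand was examined in the same way in the ExE wells, where the 92 cells with *Kitl* and the cells without it had medians of 5398.5 and 5396 genes. Of 10760 genes 1.33% were called higher and 1.5% lower in the positive cells. *Elf5*, a transcription factor of trophoblast stem cells, was lower, at 0.274 against 0.756 TP10k (log2 -1.43), and *Bmp8b* at 0.171 against 0.495 (log2 -1.48), a call lost without plate 5 (-0.88). *Cdx2* stood at 0.598 against 0.635 TP10k. The receptor was lower in cells with the ligand, at 0.0366 against 0.0898 TP10k of *Kit* (log2 -1.10), but this call was lost without plate 4 (-0.92), and without the 47 cells that went against their block *Kit* no longer passed the 10% minimum (log2 -2.14). *Prdm1* was higher, at 0.0392 against 0.0126 TP10k (log2 1.13). It passed the minimum only through the *Kitl*-positive cells, and *Kit* only through the *Kitl*-negative cells. The call of *Prdm1* was lost without plate 3 (0.95) or plate 4 (0.91). The VE marker *Amn* stood at 0.0500 against 0.577 TP10k (log2 -3.29), and without the 47 cells at -0.47 on the log2 scale. *Amn* is among the markers that picked out those 47 cells, so leaving them out favours a lower level of it by construction.

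By the same correlation, none of the genes named here came as near to its member as *Tfap2c* to *Dppa3* (r = 0.53). Some of them were nearer to theirs than *Tfap2c* was to *Nanos3* (r = 0.29). For *Dppa3* the next after *Tfap2c* were *Cpsf4l* (r = 0.44) and *Klhl13* (0.42), and for *Nanos3* they were *Epc1* (0.28) and *Ppp1r18* (0.27). *Prdm1* was followed by *Ap3b2* (0.27), *Nhlrc3* (0.26) and *Tbc1d5* (0.24), and *Prdm14* by *E2f1* (0.30), *Mreg* (0.26) and *Ncoa5* (0.24). For *Kit* they were *Usp24* (0.32, but 0.04 on plates 3 and 4), *Slc15a2* (0.28) and *Pdgfa* (0.27). For *Kitl*, found in 7 Epi cells, they were *St6galnac2* (0.25), *Sfn* (0.22) and *Slc50a1* (0.22). In the blocks where receptor and ligand were more frequent, *Kitl* was nearest to *Dlgap1* (0.32), *Lmntd2* (0.31) and *Sat1* (0.31) over the ExE cells, and *Kit* to *Lima1* (0.33), *Atp1b1* (0.31) and *Rhou* (0.30) over the VE cells. Among these named genes, *Tfap2c* alone was listed for more than 1 member. Between members, r was highest for *Nanos3* and *Kitl* (0.34), which were found together in 3 cells and of which *Kitl* is below the 10% of cells asked of the genes ranked above. It was 0.19 for *Dppa3* and *Nanos3* and 0.13 for *Prdm1* and *Prdm14*.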

How the data were processed

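Single cells were sorted by FACS into wells and read with SMART-seq2, which copies whole transcripts and adds no molecular identifiers. The authors demultiplexed reads with bcl2fastq 2.20, pseudoaligned them to the GRCm38 transcriptome (Gencode vM16) with kallisto, summed transcripts per gene with tximport, filtered mitochondrial, ribosomal and pseudogenes, and deposited TPM for 20999 genes. The values keep no read number, so near copies, isoforms and depth cannot be resolved further.

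Wells with at least 2500 genes above 0 were kept, as in the study, whose read minimum could not be applied. 39 wells had no values. This left 314 Epi (101, 107 and 106 on plates 3, 4 and 5), 315 VE, 353 ExE, 142 ESC, 141 iTSC and 141 iXEN cells. TPM were rescaled to 10000 per cell. Plate columns were read as sort blocks by a rule that the labels do not state, and were checked against 4 markers per lineage. All columns of the table were used. Shares have Clopper-Pearson intervals and differences of shares Newcombe intervals, computed with Python 3.11.15, numpy 2.4.6, pandas 2.3.3 and scipy 1.17.1. Cells are not replicates, hence no p-value. Named genes are the 6 members, 9 lists of 73 genes, the lineage markers, and for each member the 3 genes with the highest correlation across Epi cells, among genes found in at least 10% of them and positively correlated on each plate. The members and lists were chosen with earlier results of these data known. The division of Epi cells by *Dppa3* and of ExE cells by *Kitl*, and the likeness in ExE and VE cells, were added after the data had been seen. Alternatives were other minima of genes per cell (none, 4000, or 5500 to 8500), detection from 1 TPM, other added constants (0.1 and 0.001), no filter on low genes, TPM without rescaling, mean ln(TP10k + 1), leaving out each plate, and leaving out cells that go against their block. The fold rule was checked on Epi cells split at random within plates, with changes put into genes found in many of these cells. That check does not cover genes found in few cells, as the members were, or a group as small as the *Nanos3*-positive cells.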

Additional observations from a re-analysis of the deposited data

Results flagged for a closer look

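*Dppa3* and *Nanos3* went in opposite directions in 2 comparisons of 3D with 2D cells, with all plates of a comparison on the same side. *Dppa3* was higher in Epi wells than in 2i/LIF ESCs (log2 fold 2.49, between 2.24 and 2.73 on the plates) and lower in ExE wells than in iTSC (log2 fold -1.90, between -2.64 and -1.11). *Nanos3* was higher in Epi wells than in ESCs (log2 fold 2.82, between 2.71 and 2.91) and lower in ExE wells than in iTSC (log2 fold -1.06, between -1.45 and -0.51). The difference between these comparisons was not tested, since each group is 1 sample. Both genes passed the 10% minimum only through iTSC, and with 0.1 added both calls were lost (-0.51 and -0.35). In the ExE wells the values rest on 4 cells with *Dppa3* and 8 with *Nanos3*, and the call of *Nanos3* was lost without plate 3 (-0.89) or plate 4 (-0.92).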

How the results depend on the processing

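No paired analysis was possible because each group is 1 sample. Of 38 calls of single genes, recomputed 487 times in all, 428 were kept, 59 were lost and 0 changed direction, and 7 calls were gained. With no minimum of genes per cell, the shares of Epi cells with *Dppa3* and *Kit* were 30.2% and 25.7%, members called higher in Epi wells than in ESCs numbered 1 in place of 2, and members lower in ExE wells than in iTSC 0 in place of 2. With 0.1 TP10k added, members higher in Epi than in ExE wells numbered 2 in place of 4 and members lower in ExE wells than in iTSC 0, and with TPM not rescaled the latter numbered 1. Between 5500 and 8500 genes, which left 85 Epi cells (10 with *Nanos3*) and 20 ESCs, the shares were 43.5% for *Dppa3*, 23.5% for *Prdm1*, 54.1% for *Kit* and 4.71% for *Kitl*. Members higher in Epi wells than in ESCs and lower in ExE wells than in iTSC then each numbered 1, and the differences between *Nanos3*-positive and *Nanos3*-negative cells were -15.3 points for *Prdm1* and -10.0 for *Prdm14*. Between *Nanos3*-positive and *Nanos3*-negative cells, members and list genes numbered 3 higher and 4 lower; the lower ones numbered 8 at 4000 genes or more and 7 with no filter on low genes, and by the direction of mean ln(TP10k + 1) alone 8 were higher and 12 lower. Leaving out 1 plate gave 5 to 7 higher and 6 to 8 lower, 24.4% to 34.6% of Epi cells with *Kit*, 1 to 2 members lower in ExE wells than in iTSC, and a difference of -1.58 to 26.9 points for *Prdm14*. Weakly expressed members are detected in more cells where depth is larger, and a listed 0 in a cell does not show absence. The causes of these shifts were not tested beyond the settings' own construction.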
